A study of Mus musculus with 4 samples.

Results

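Alarmins are proteins that cells hold inside and release on damage or activation, and the 8 genes described here are a set of alarmins with their receptors: S100a8, S100a9, S100a4, S100a6 and Hmgb1 as ligands, and Tlr4, Tlr2 and Ager as receptors. They were taken by symbol from the 32285 genes counted in every library, 1 row per symbol. The data were droplet single-cell RNA-seq counts of CD45+ cells sorted from hindpaws of male mice, made with 10x Genomics chemistry that reads the 3′ end of transcripts and counts molecules by unique molecular identifiers (UMIs). WT mice were Lepr WT/WT littermates, and DB mice were Lepr db/db on the C57BLKS/J background (C57BLKS/J-Dock7m +/+ Leprdb), which lack the long leptin receptor in all tissues and become obese and hyperglycaemic. Each genotype was taken at 12 and at 21 weeks of age, and each of the 4 groups was 1 library of cells pooled from 2 to 3 mice. Between groups there is therefore no replicate: differences between DB and WT or between ages have no test, and their 95% intervals cover counting error only.

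S100A8 and S100A9 form a heterodimer, calprotectin, that fills the cytosol of neutrophils and classical monocytes and signals through TLR4 once released. S100A4 and S100A6 are small calcium-binding proteins of motile and growing cells, and HMGB1 is a nuclear DNA-binding protein that acts on TLR4, TLR2 and RAGE (the product of Ager) when it leaves the cell. TLR4 and TLR2 sit on myeloid cells and lead through MyD88 to NF-kB, whereas RAGE, which also binds advanced glycation end products, is known best from lung epithelium.

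The 4 S100 genes lie within 92.0 kb of mouse chromosome 3 in GRCm38: S100a4 at chr3:90603771-90606045 and S100a6 at chr3:90612882-90624181, both on the plus strand, S100a8 at chr3:90668978-90670035 on the plus strand, and S100a9 at chr3:90692632-90695721 on the minus strand, 22.6 kb from S100a8. Their promoters are shown because the 4 neighbours differed in how they moved below. RefSeq holds 7 of the 8 members, and the 300 bases printed run 5′ to 3′ from 250 bases before each RefSeq start to 50 after it, in build GRCm38.p6: S100a8 chr3:90668821-90669120 (plus strand), S100a9 chr3:90695672-90695971 (minus strand), S100a4 chr3:90603520-90603819 (plus strand), S100a6 chr3:90612644-90612943 (plus strand). Capitals mark matches to TATAAA, the TATA box letters, and to TTGCNNAA, letters shared by sites of C/EBP factors.
S100a8: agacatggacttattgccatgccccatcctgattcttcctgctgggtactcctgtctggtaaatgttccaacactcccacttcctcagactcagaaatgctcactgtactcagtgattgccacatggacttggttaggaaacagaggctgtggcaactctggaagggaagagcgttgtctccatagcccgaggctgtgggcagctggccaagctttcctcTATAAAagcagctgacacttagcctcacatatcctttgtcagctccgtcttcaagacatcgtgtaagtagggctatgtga
S100a9: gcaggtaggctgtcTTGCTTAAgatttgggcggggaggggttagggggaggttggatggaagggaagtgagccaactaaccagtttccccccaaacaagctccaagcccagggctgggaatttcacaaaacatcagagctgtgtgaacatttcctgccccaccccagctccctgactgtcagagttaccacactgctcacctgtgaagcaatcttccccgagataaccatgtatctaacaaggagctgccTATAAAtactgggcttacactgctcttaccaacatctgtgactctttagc
S100a4: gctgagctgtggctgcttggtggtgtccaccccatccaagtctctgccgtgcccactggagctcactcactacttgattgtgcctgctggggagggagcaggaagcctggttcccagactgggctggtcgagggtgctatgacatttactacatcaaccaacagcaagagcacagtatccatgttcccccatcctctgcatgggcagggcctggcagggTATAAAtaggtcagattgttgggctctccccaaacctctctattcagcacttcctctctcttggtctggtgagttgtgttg
S100a6: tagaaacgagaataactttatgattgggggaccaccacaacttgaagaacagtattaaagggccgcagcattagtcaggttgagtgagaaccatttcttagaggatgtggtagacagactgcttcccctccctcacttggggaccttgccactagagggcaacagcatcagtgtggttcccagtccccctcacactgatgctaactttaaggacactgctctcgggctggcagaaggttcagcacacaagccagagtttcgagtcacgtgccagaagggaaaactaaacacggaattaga
A search of both strands found TATAAA 30 bases before the start in S100a8, 31 before it in S100a4 and at the start itself in S100a9, and in none of the window of S100a6. Of 32851 promoters of this length, 13.62% hold TATAAA. The S100a9 window has 1 TTGCNNAA match 236 bases before the start, letters found in 10.8% of promoters. TGANTCA, letters of AP-1 sites, and the NF-kB motif had no match in these 4 windows and stand in 7.808% and 0.4109% of all promoters. Tlr2 lies on the same chromosome before the S100 genes, at chr3:83836272-83841767 on the minus strand, Tlr4 at chr4:66827584-66930284 on the plus strand and Ager at chr17:34597862-34600936 on the plus strand. Hmgb1, at chr5:149046702-149184489 on the minus strand, overlaps 5 other measured genes, counted on either strand. How this overlap bears on its UMI count was not tested.

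The libraries held 5998 to 9124 barcodes, of which 5271 to 8707 per library held 200 genes or more with no more than 10% of UMIs from mitochondrial genes (27800 in all), with totals of 46435961 to 67723605 UMIs per library and a median of 5355 to 8000.5 UMIs per barcode. Ptprc, which encodes CD45, had a UMI in 79.6 to 91.2% of barcodes. Lists of 4 values below give WT then DB at 12 weeks, followed by WT then DB at 21 weeks. Lepr gave 28, 16, 30 and 17 UMIs, and 3′ reads do not check this mutation. Each barcode was placed in a class by a score over marker genes, so every class named here is "like" its name, and 10.9 to 15.3% of barcodes stayed unassigned. In each of the 13 classes with at least 20 barcodes in every library, all measured markers of the class stood above the other classes. The classes were gated on these same markers, so this is no separate check of their names. Macrophages numbered 1742, 2018, 1688 and 1522, and neutrophils only 107, 81, 111 and 35. A further 50 barcodes (19, 8, 9 and 14) carried at least 3 of 8 neutrophil genes without gating as neutrophils. They were set aside, a choice made after the data were seen. The 8 are called granule genes here, although Il1r2 among them encodes a receptor. Between 5 and 146 cell barcodes were shared by any pair of libraries. Levels are CPM, the UMIs of a gene scaled to the UMI total of the class in that library, and since no correction for transcript length applies to 3′ counts, levels of different genes are not compared.

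S100a8 and S100a9 were neutrophil genes in every library, and in macrophages S100a8 was detected in a higher share of barcodes in DB than in WT and S100a9 in a lower share, at both ages. The same directions were found in CPM (S100a8 at 12 weeks short of 1.5-fold), but with the barcodes set aside for granule genes kept, S100a8 was lower in DB at 12 weeks (log2 -0.90) and S100a9 higher at 21 weeks (1.25). Over all kept barcodes of a library, both genes were lower in DB at both ages. In neutrophils S100a8 stood at 53212, 33699, 28478 and 37650 CPM. S100a9 stood at 70465, 45660, 45131 and 74349. At least 96.3% of neutrophils had each gene, and these neutrophils, 2.03, 1.24, 1.53 and 0.402% of kept barcodes, gave 60.4, 72.3, 49.0 and 50.3% of all S100a8 UMIs. Across the 13 classes neutrophils exceeded monocytes, the next class, by 7.17 ± 0.69 (log2, SE, n = 4 libraries) for S100a8 and by 9.34 ± 0.69 for S100a9, with adjusted p = 5.7e-12 and 2.0e-15 in edgeR's quasi-likelihood test. Any pair of classes differed in 42.1% of gene tests by that rule, pooled over the 78 pairs. Within the order of S100a8 levels, 3 of 12 neighbouring pairs differed: neutrophils over monocytes, monocytes over macrophages (2.54 ± 0.56, adjusted p = 0.00025) and macrophages over type 2 innate lymphoid cells (ILC2; 1.65 ± 0.58, adjusted p = 0.012). The other 10 classes, from ILC2 down, had 0 to 34.6 CPM, and none of their neighbouring pairs passed the test. For S100a9 only 2 of 12 neighbouring pairs differed, neutrophils over monocytes and monocytes over ILC2 (1.86 ± 0.55, adjusted p = 0.0041), and macrophages ranked 10 of 13. Without the 21-week DB library the excess of monocytes over macrophages in S100a8 was 1.18 (adjusted p = 0.0034).

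**Figure D1:**
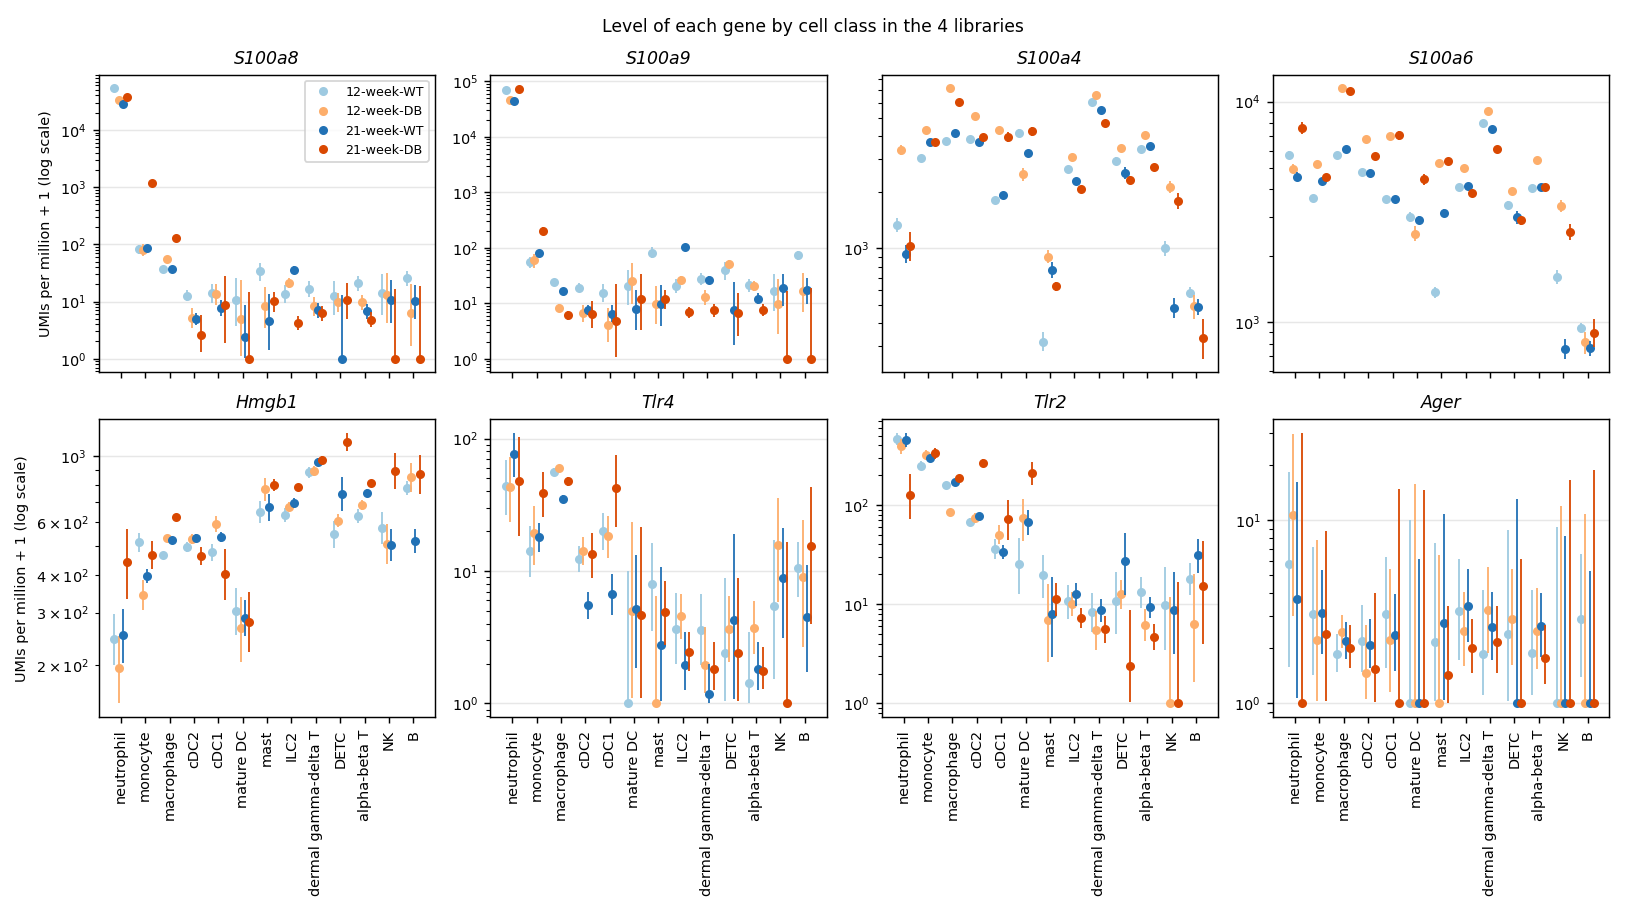
Level of each member plus 1 in CPM (log axis, its range set per gene) by marker-gated class, with 1 point per library and bars for exact 95% Poisson intervals. S100a8 and S100a9 peak in neutrophils, S100a4 and S100a6 are spread over most classes, Tlr4 and Tlr2 are highest in myeloid classes, and Ager is at most 9.72 CPM.

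S100a8 in macrophages was detected in 24.1% (95% Clopper-Pearson interval 22.1 to 26.2), 33.8% (31.8 to 36.0), 24.5% (22.5 to 26.7) and 47.9% (45.4 to 50.4) of barcodes. The DB library was above the WT library at both ages, and the intervals of DB and WT did not overlap. The level was 36.0, 53.4, 36.3 and 128 CPM (exact Poisson intervals 33.2 to 38.9, 50.5 to 56.5, 33.7 to 39.1 and 122 to 134), from 634, 1205, 703 and 1890 UMIs. The DB to WT ratio was 1.49 (1.35 to 1.64) at 12 weeks, just under the 1.5-fold used here as a call, and 3.53 (3.23 to 3.85) at 21 weeks, past it. S100a9, the heterodimer partner, was detected in 19.3% (17.5 to 21.2), 7.58% (6.46 to 8.82), 9.12% (7.79 to 10.6) and 3.02% (2.22 to 4.01) of the same macrophages. Its level of 23.5, 7.32, 15.9 and 5.08 CPM gave DB to WT ratios of 0.311 (0.258 to 0.373) and 0.320 (0.246 to 0.414). In CPM the genes were on opposite sides at both ages, and with the granule gene barcodes kept they were not: at 12 weeks S100a8 was then at 104 CPM in WT and 55.5 in DB and S100a9 at 100.3 and 11.99, and at 21 weeks S100a8 at 36.3 and 153 and S100a9 at 15.9 and 37.8. Among all genes with at least 50 UMIs in macrophages, 4.38% were past 1.5-fold higher in DB and 8.31% past it lower at 12 weeks, and 14.3% higher and 8.29% lower at 21 weeks. Of the 7 members with enough UMIs, 2 were higher (S100a4, S100a6) and 2 lower (S100a9, Tlr2) at 12 weeks, and 2 were higher (S100a8, S100a6) and 1 lower (S100a9) at 21 weeks. Lower S100a9 was not particular to macrophages. Over classes with enough UMIs it was lower in DB in 6 and higher in 0 of 10 at 12 weeks, and lower in 4 and higher in 2 of 7 at 21 weeks. S100a8 was lower in 4 and higher in 1 of 7, then lower in 1 and higher in 2 of 6. Over all genes and classes pooled, 6.13% were lower and 6.66% higher at 12 weeks, and 14.6 and 13.9% at 21 weeks.

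Free RNA from lysed neutrophils can place S100a8 and S100a9 UMIs in any droplet, so both genes were followed in cells that should lack them. In alpha-beta T cells, S100a8 was detected in 12.2, 3.53, 3.74 and 2.09% of barcodes at a median depth of 5602, 5006, 5575 and 5023 UMIs, against 8962, 10437, 10470.5 and 8947.5 in macrophages. In cDC2 (type 2 conventional dendritic cells), which were deeper than macrophages (median 12186, 11666, 13812 and 12139 UMIs), the share was 13.9, 5.20, 5.55 and 2.07%, below macrophages in every library. S100a9 in cDC2 was found in 97 of 461 barcodes at 12 weeks in WT, and in 6.94, 8.52 and 6.21% of barcodes in the next 3 libraries. Macrophages had it in 19.3, 7.58, 9.12 and 3.02%, below cDC2 in the 12-week WT and 21-week DB libraries and above them in the other two. With every barcode thinned to 1000 UMIs, S100a8 was found in 3.65, 5.38, 3.31 and 10.0% of macrophages against 1.46, 0.461, 0.111 and 0.525% of alpha-beta T cells. At either depth macrophages thus held S100a8 more often than these T cells. S100a8 in macrophages exceeded alpha-beta T cells by 2.90 ± 0.62 (log2, SE, adjusted p = 7.1e-05) and cDC2 by 3.20 ± 0.64 (adjusted p = 5.1e-05), while S100a9 differed by -0.21 ± 0.54 (adjusted p = 0.74) and 0.30 ± 0.56 (adjusted p = 0.72). The ratio of S100a8 to S100a9 UMIs was 0.755, 0.738, 0.631 and 0.506 in neutrophils. In macrophages it was 1.53 (1.35 to 1.73), 7.30 (6.20 to 8.65), 2.29 (2.00 to 2.63) and 25.2 (1890 against 75 UMIs), above the neutrophil ratio in all 4 libraries and higher in DB at both ages. Alpha-beta T cells had 0.978, 0.449, 0.515 and 0.577, and cDC2 had 0.645 and 0.589 in WT and 18 against 24 and 3 against 10 UMIs in DB. Other classes varied: over the 10 classes that are neither neutrophils, macrophages nor monocytes, the interval held the neutrophil ratio of the same library in 29 of 38 cases, lay below it in 7 and above it in 2. Those below it included ILC2 (0.340, 0.279 to 0.411) and dermal gamma-delta T cells (0.238, 0.159 to 0.348) of the 21-week WT library, and both above it were cDC1. In macrophages and in monocytes it lay above in 4 of 4 libraries. The part of free RNA in these values was not tested. After the pooled profile of each library was subtracted at 4.40, 4.11, 4.04 and 2.98% of UMIs, S100a8 in macrophages stood at 1.24, 44.6, 24.5 and 127 CPM and S100a9 at 0 in every library. Each rate was the median of estimates from Cd79a, Cpa3 and C1qa, which ran from 1.83 to 15.8% over genes and libraries. Values below 0 were set to 0, so for S100a9 the subtraction took away at least all macrophage UMIs. The S100a8 level left in the 12-week WT library was the lowest of the 4 by far. How far that level rests on the rate was not tested.

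**Figure D2:**
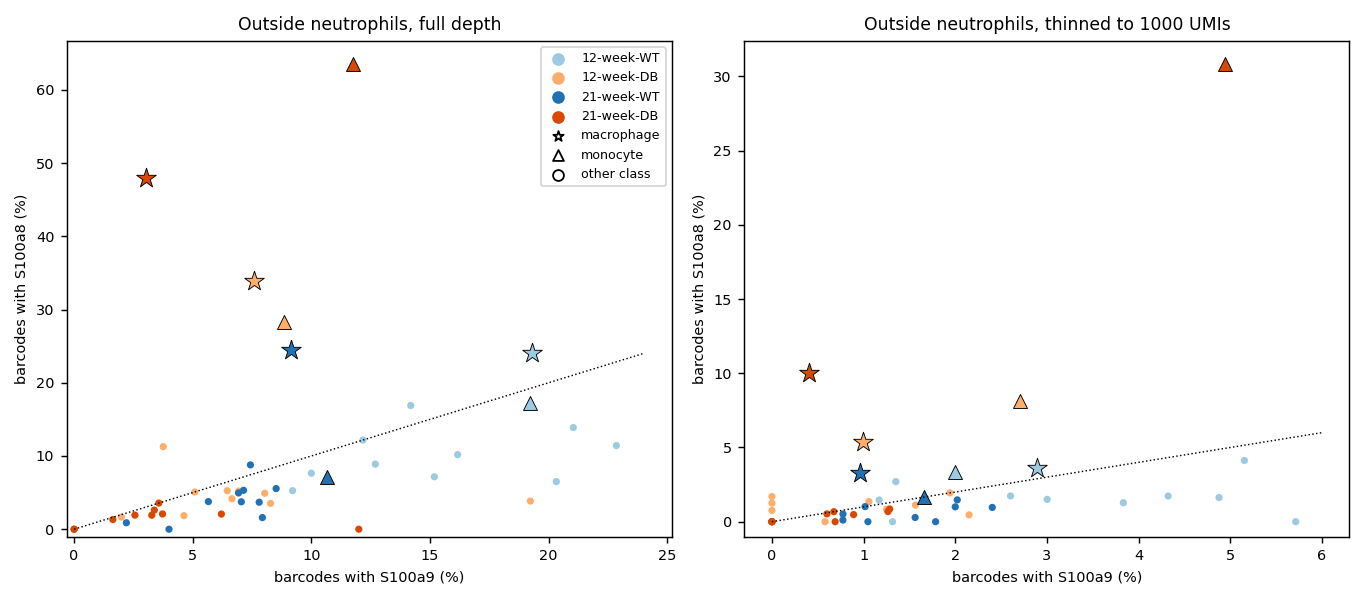
Percent of barcodes with a UMI of S100a8 (vertical) against S100a9 (horizontal) in classes outside neutrophils at full depth (left) and thinned to 1000 UMIs (right), with 1 point per class and library and a dotted line at equal shares. Macrophages (stars) lie above the line in all 4 libraries, and monocytes (triangles) lie farthest above it in the 21-week DB library, at 63.5% with S100a8.

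S100a8 in macrophages was spread over many cells at a low count rather than held by few. Of S100a8-positive macrophages, 71.7, 57.5, 67.4 and 39.5% had a single UMI, and 2.47, 5.75, 3.14 and 17.5% of all macrophages had 3 or more. The highest count in 1 macrophage was 12, 11, 70 and 26 UMIs. S100a9 was found in 24.0, 8.49, 10.1 and 3.16% of S100a8-positive macrophages and in 17.8, 7.12, 8.79 and 2.90% of negative ones, so detection of S100a8 went with only a slightly higher share of S100a9. When macrophages were split by the clusters of each library, the cluster with the most S100a8 had it in 51.4, 63.3, 43.7 and 72.4% of barcodes and carried Lyve1, the hyaluronan receptor of perivascular macrophages, in 87.1, 83.6, 97.4 and 89.4%. High Lyve1 was not particular to that cluster. At 12 weeks another WT cluster had Lyve1 in 94.5% and S100a8 in 19.6% of barcodes, and a DB cluster in 93.9 and 25.9%. At 21 weeks a WT cluster had 95.7 and 19.0%, while the next DB cluster by Lyve1 had 69.6 and 44.7%. The clusters were built with all genes, so this is a description.

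The barcodes set aside for granule genes moved the level of both genes in macrophages more than the share. Only 2, 2, 0 and 2 of them gated as macrophages, yet 1 barcode in the 12-week WT library held 1195 S100a8 and 1357 S100a9 UMIs. With them kept, S100a8 in macrophages stood at 104, 55.5, 36.3 and 153 CPM and in 24.2, 33.9, 24.5 and 48.0% of barcodes. The DB to WT log2 ratio of S100a8 then turned from 0.57 to -0.90 at 12 weeks and was 2.08 against 1.82 at 21 weeks, and that of S100a9 at 21 weeks turned from -1.64 to 1.25, with 483 S100a9 UMIs in 1 barcode of the DB library. The shares of S100a9 became 19.3, 7.67, 9.12 and 3.15%. S100a8 at 12 weeks passed 1.5-fold in DB when barcodes over 5% mitochondrial UMIs were left out (log2 0.61), when likely doublets were removed (0.62) and when classes came from clusters (0.66). In the 21-week WT library 134 of the 307 S100a9 UMIs of macrophages came from 1 barcode.

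Monocytes, the circulating precursors that carry calprotectin, stood at 80.9, 80.0, 86.2 and 1162 CPM of S100a8. The 21-week DB library was apart from the others, with S100a8 in 54 of 85 monocytes (63.5%, 52.4 to 73.7) against 26 of 151 (17.2%), 32 of 113 (28.3%) and 26 of 366 (7.10%). In the 21-week WT library 230 of 284 UMIs came from 1 barcode. The DB to WT ratio at 21 weeks was 13.5 (11.8 to 15.5), and that of S100a9 2.52 (2.04 to 3.10), with 96 of the 144 DB UMIs of S100a9 in 1 barcode. With the granule gene barcodes kept, 6, 3, 4 and 5 of which gated as monocytes, the log2 ratios at 21 weeks turned to -0.34 and -2.14, whereas the share of S100a8-positive monocytes was 64.4% in DB and 8.11% in WT. In ILC2, 58 of 94 S100a8 UMIs of the 12-week DB library and 72 of 144 of the 21-week WT library were in 1 barcode each. Within neutrophils themselves the DB to WT ratio was 0.633 (0.619 to 0.648) for S100a8 and 0.648 (0.635 to 0.661) for S100a9 at 12 weeks, and 1.32 (1.28 to 1.37) and 1.65 (1.61 to 1.69) at 21 weeks, where DB had 35 neutrophils. S100a9 at 21 weeks was within 1.5-fold with TMM scaling (log2 0.54). Without barcodes that another library also holds, the 12-week log2 ratios moved from -0.66 to -0.33 and from -0.63 to -0.30, no longer past 1.5-fold. Macrophages gave 1.73, 8.37, 3.27 and 19.8% of all S100a8 UMIs in the libraries, and the set aside barcodes 36.3, 14.2, 43.2 and 15.997%.

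S100a4 and S100a6 were expressed by nearly all classes and were higher in macrophages of DB mice at both ages. S100a4, also called FSP1 and tied to cell motility, stood at 3762, 7144, 4118 and 6082 CPM of macrophages. S100a6, or calcyclin, stood at 5741, 11478, 6089 and 11158. Both DB libraries were above both WT libraries for each gene. The DB to WT ratios were 1.90 (1.88 to 1.92) and 1.48 (1.46 to 1.49) for S100a4 and 2.00 (1.98 to 2.01) and 1.83 (1.82 to 1.85) for S100a6 at 12 and 21 weeks. S100a4 at 21 weeks fell just short of 1.5-fold and passed it when likely doublets (log2 0.59) or mitochondrial and ribosomal protein genes (0.60) were left out.

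The same direction, past 1.5-fold at both ages, was found in cDC1 and NK cells for both genes and in mast cells for S100a6. At any size of change, S100a4 was higher in DB in 11 of 13 classes at 12 weeks and in 6 at 21 weeks. S100a6 was higher in 10 of 13 at each age. In cDC1 (type 1 conventional dendritic cells), S100a4 stood at 1816, 4274, 1929 and 3928 CPM and S100a6 at 3635, 6964, 3633 and 7040, ratios of 2.35 and 2.04 for S100a4 and of 1.92 and 1.94 for S100a6. NK cells had S100a4 at 1001, 2127, 482 and 1794, ratios of 2.12 (1.89 to 2.40) and 3.72 (3.17 to 4.37), and S100a6 at 1604, 3368, 756 and 2568, also higher in DB at both ages. The NK libraries held only 76, 59, 101 and 41 barcodes. Mast cells had S100a6 at 1370, 5284, 3127 and 5376, ratios of 3.86 (3.61 to 4.12) and 1.72 (1.64 to 1.81). Over the 13 classes S100a4 was past 1.5-fold higher in DB in 5 at 12 weeks and 2 at 21 weeks, and lower in 1 (mature dendritic cells, 12 weeks) and 0. S100a6 was higher in 4 and in 6 and lower in none. Over all genes and classes pooled, 6.66% were higher and 6.13% lower at 12 weeks, and 13.9% higher and 14.6% lower at 21 weeks. In dermal gamma-delta T cells, the class with the highest S100a4 mean, the ratios were 1.09 and 0.853 for S100a4 and 1.14 and 0.815 for S100a6. In the order of classes, dermal gamma-delta T cells and macrophages led for both genes, and the difference between them did not pass the test (adjusted p = 0.73 for S100a4 and 0.65 for S100a6). B cells had the least of both, at 330 to 581 and 760 to 939 CPM, and S100a6 in NK cells exceeded B cells by 1.12 ± 0.26 (adjusted p = 0.00084). Only 2 of 12 neighbouring pairs differed for each gene.

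**Figure D3:**
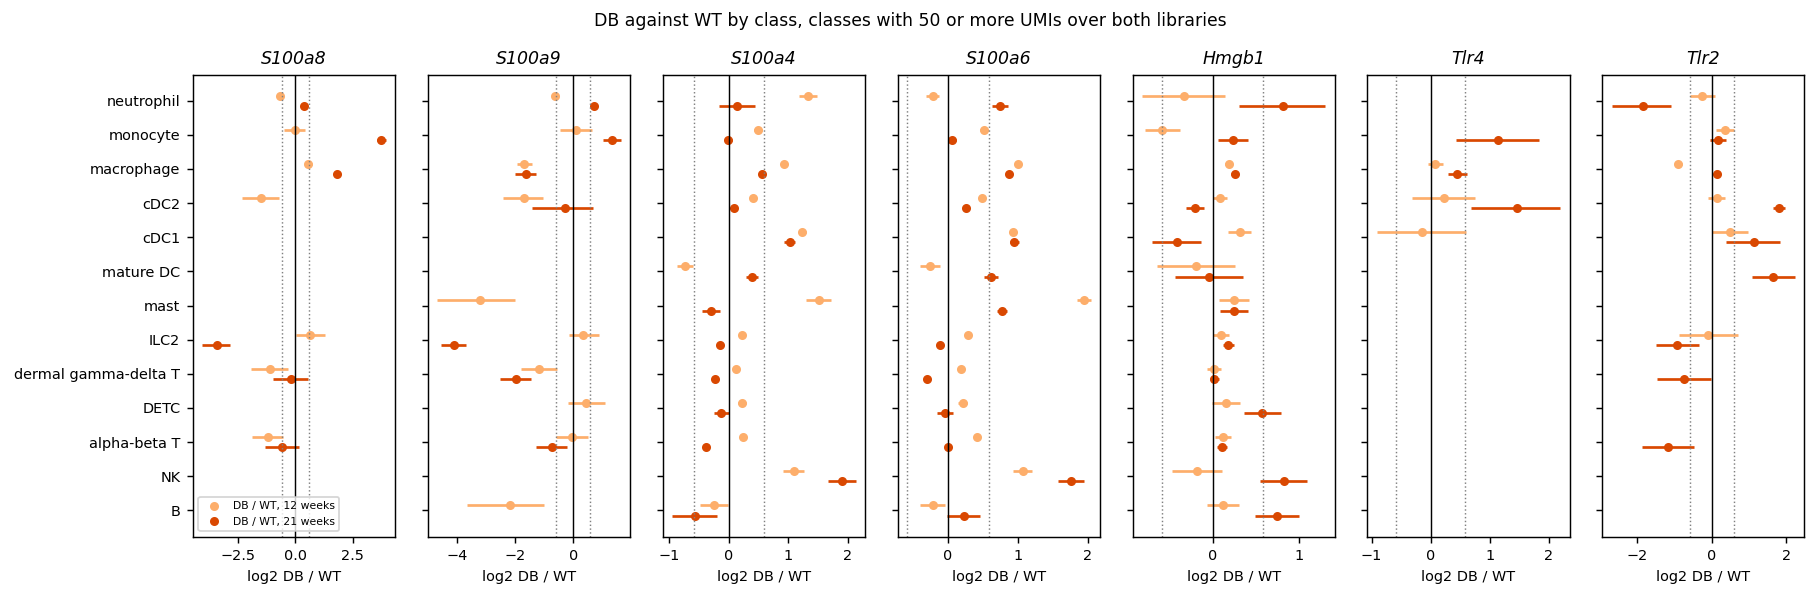
Log2 ratio of DB to WT by class at 12 and 21 weeks for the members with enough UMIs, with 95% intervals for counting error and dotted lines at 1.5-fold. S100a4 and S100a6 lie right of 0 in macrophages, cDC1 and NK cells at both ages, and S100a9 lies left of it in macrophages.

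Hmgb1 was present in every class, and DB and WT macrophages were within 1.5-fold of each other. In macrophages it stood at 466, 531, 524 and 624 CPM, ratios of 1.14 (1.11 to 1.17) and 1.19 (1.16 to 1.23). Dermal gamma-delta T cells had the highest mean, at 880 to 969 CPM, and neutrophils and mature dendritic cells the lowest, 194 to 440 and 265 to 302. Only 1 of 12 neighbouring pairs in the order differed, monocytes over mature dendritic cells (0.61 ± 0.18, adjusted p = 0.0080). No class passed 1.5-fold at 12 weeks, and 3 of 13 were past it, higher in DB, at 21 weeks, when 13.9% of all genes over the pooled classes were: B cells 1.67 (1.40 to 1.99), NK cells 1.76 (1.46 to 2.12) and neutrophils 1.75 (1.23 to 2.46), the last from 56 and 93 UMIs.

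Of the receptors, Tlr4 and Tlr2 had their highest levels in myeloid classes. Tlr4, the receptor for endotoxin and for S100A8/A9, stood at 43.2, 42.1, 75.7 and 47.1 CPM in neutrophils, from 6 to 28 UMIs, and at 55.3, 58.4, 34.1 and 46.6 in macrophages. The difference between neutrophils and macrophages did not pass the test (log2 0.64 ± 0.33, adjusted p = 0.10), and macrophages exceeded monocytes by 0.95 ± 0.27 (adjusted p = 0.0038). Without the 12-week WT library, the latter became 0.73 with adjusted p = 0.063. Lymphoid T cell classes and ILC2 had at most 3.58 CPM. Tlr4 in macrophages of DB against WT was 1.06 (0.972 to 1.15) at 12 weeks and 1.37 (1.23 to 1.52) at 21 weeks, neither past 1.5-fold. Over classes with enough UMIs, Tlr4 was past 1.5-fold in 0 of 3 at 12 weeks. At 21 weeks it was higher in DB in 2 of 3, beside 13.9% of all genes over the pooled classes. Those were monocytes (27 UMIs in DB and 56 in WT) and cDC2 (23 and 50).

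Tlr2, which with TLR1 or TLR6 senses bacterial lipoproteins, was highest in neutrophils (463, 389, 452 and 126 CPM) and monocytes (248, 318, 294 and 331), a pair whose difference did not pass the test (adjusted p = 0.18). Macrophages stood at 157, 84.2, 168 and 185, with the 12-week DB library below the other 3. Monocytes exceeded macrophages by 1.26 ± 0.32 (adjusted p = 0.0014), or by 0.99 with adjusted p = 0.068 without the 12-week DB library. The DB to WT ratio in macrophages was 0.538 (0.507 to 0.570) at 12 weeks and 1.10 (1.05 to 1.16) at 21 weeks. In cDC2 Tlr2 stood at 66.7, 72.9, 76.0 and 266, a ratio of 3.50 (3.12 to 3.91) at 21 weeks, when 93 of 145 DB cDC2 (64.1%) and 270 of 775 WT cDC2 (34.8%) had a UMI. The 21-week DB library was the only one of the 4 with a cDC2 level above 76.0 CPM. Neutrophils went the other way at 21 weeks with a ratio of 0.278 (0.155 to 0.465), from 16 and 167 UMIs. Over classes with enough UMIs, Tlr2 was past 1.5-fold higher in none and lower in 1 of 6 at 12 weeks, and higher in 3 and lower in 4 of 9 at 21 weeks, beside 6.66 and 6.13% of all genes over the pooled classes at 12 weeks and 13.9 and 14.6% at 21 weeks. S100a8-positive macrophages had a UMI of Tlr4 or Tlr2 in 76.4, 68.7, 70.0 and 66.8% of barcodes, and S100a8-negative ones in 66.8, 58.7, 60.2 and 64.4%. How depth, which raises both, bears on this was not tested.

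Ager was rarely detected in these leukocytes. Its highest level in the 13 classes was 9.72 CPM, from 3 UMIs in 81 neutrophils, and macrophages had 15, 33, 23 and 15 UMIs in all, or 0.851, 1.46, 1.19 and 1.02 CPM. A UMI was found in 0.746, 1.54, 1.36 and 0.986% of macrophages. No UMI was found in the 41 to 101 NK cells or the 25 to 63 mature dendritic cells of each library, which allows a share of cells with a UMI of up to 3.59 to 13.7% (upper exact 95% limits, counting error only), and no ratio between groups had enough UMIs for a call.

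Age was compared within each genotype, with the reservation that the 12-week files came from another Cell Ranger version than the 21-week files, so age and software cannot be told apart. In WT macrophages the log2 ratio of 21 to 12 weeks was 0.01 for S100a8 (-1.51 with the granule gene barcodes kept), 0.13 for S100a4, 0.08 for S100a6, 0.17 for Hmgb1 and 0.10 for Tlr2, while Tlr4 was past 1.5-fold lower (-0.70) and S100a9 was at -0.57. In DB macrophages S100a8 was at 1.26 and Tlr2 at 1.14, both past 1.5-fold, against -0.23 for S100a4, -0.04 for S100a6, 0.23 for Hmgb1, -0.33 for Tlr4 and -0.53 for S100a9. The WT and DB values lay farthest apart for S100a8 and Tlr2, a difference that was not tested. In WT 3.37% of genes were higher and 12.1% lower, and in DB 10.6% and 12.9%. The median gene lay at -0.17 in WT and -0.09 in DB, and with TMM scaling (edgeR's trimmed mean) the WT counts of 392 higher and 1406 lower genes became 686 and 744.

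Other genes of the pathway were followed in macrophages as lists, beside 4.38% of all genes higher and 8.31% lower at 12 weeks and 14.3% and 8.29% at 21 weeks. Of 11 co-receptors and adaptors (among them Cd14, Ly96 and Myd88), none was past 1.5-fold at 12 weeks and 1 was higher at 21 weeks, Ly96, the MD-2 subunit that binds endotoxin with TLR4, at 81.9 against 43.4 CPM. Of the other Toll-like receptors, 3 of 8 were lower at 12 weeks and 3 of 7 with enough UMIs higher at 21 weeks, Tlr7, Tlr8 and Tlr13 with log2 ratios of 1.15, 1.24 and 0.86. Those 3 sense RNA in endosomes, and they and Ly96 were picked for naming after their values were seen. Of 6 feedback regulators, 2 were lower at 12 weeks and 1 at 21 weeks, and Zfp36, which binds AU-rich transcripts for decay, was lower at both (-0.82 and -0.62). Of the list of other S100 genes and annexins, 7 of 12 had enough UMIs, with 2 higher and 1 lower at 12 weeks and 2 higher at 21 weeks, and S100a10, the partner of annexin A2, was higher at both (0.83 and 0.68). Of 5 other HMG genes, Hmga1 was higher (1.23 and 1.43) and Hmgb3 lower (-0.60 and -1.44) at both ages. Among other receptors and sinks of alarmins, 2 of 10 were lower at 12 weeks and 2 of 8 higher at 21 weeks. The list medians at 12 weeks ran from -0.50 (other Toll-like receptors) to 0.50 (S100 list), apart from granule genes, beside 0.00 over all genes, and at 21 weeks from -0.09 (receptors and sinks) to 0.26 (S100 list), beside 0.07. In macrophages the neutrophil granule genes were kept as tracers of free RNA. The same list had been used to set barcodes aside, which limited its counts in macrophages beforehand. In what was left, the granule genes were lower in DB for 4 of 4 with enough UMIs at 12 weeks (median -1.83) and for 1 of 1 at 21 weeks, Il1r2 (-1.71). Il1r2 encodes the decoy receptor for IL-1, not a granule protein. It was also higher in alpha-beta T cells with Foxp3 than in those without (log2 1.89), so it is not particular to neutrophils. The part of free RNA in these results was not tested.

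Macrophages with and without Lyve1 were compared within each library, since the study divided macrophages in this way. Tlr2 was lower in Lyve1+ macrophages, at 142, 70.5, 125 and 136 CPM against 191, 103, 243 and 313 in Lyve1- macrophages. It was lower in 4 of 4 libraries, by log2 -0.88 ± 0.13 (adjusted p = 0.0015, edgeR quasi-likelihood test with library as block). Tlr4 was higher (60.2, 62.0, 40.3 and 48.6 against 44.0, 53.5, 23.3 and 41.4; log2 0.33 ± 0.09, adjusted p = 0.033) and S100a4 lower (-0.28 ± 0.09, adjusted p = 0.047), each in 4 of 4 libraries. The Tlr4 call was lost with DESeq2 (adjusted p = 0.094) and without either WT library (0.13 and 0.12), and the S100a4 call in all but 1 of the leave-one-out fits (0.12 to 0.20). S100a8 did not pass the test (0.23 ± 0.16, adjusted p = 0.33), although it was detected in 25.8 against 20.7%, 35.9 against 31.3%, 31.3 against 15.0% and 51.7 against 40.4% of Lyve1+ and Lyve1- macrophages. Lyve1+ macrophages were deeper in every library (median 9629, 10992, 11308 and 9659.5 against 7894, 9749, 9437 and 7649 UMIs). Without the 21-week WT library S100a9 was lower in Lyve1+ macrophages (-0.89, adjusted p = 0.0076). In that library the Lyve1+ side held 232 S100a9 UMIs, 134 of them in 1 barcode, and the Lyve1- side held 75. S100a9, S100a6, Hmgb1 and Ager gave, over all 4 libraries, log2 -0.43, -0.17, 0.04 and -0.76 with adjusted p from 0.12 to 0.74. Of all genes tested 13.2% were higher and 12.8% lower. Among the pathway lists, the feedback regulators Tnfaip3 (-1.41), Nfkbia (-1.11) and Zfp36 (-1.08) were lower in Lyve1+ macrophages, as were Irak2 (-1.06) and Cd14 (-0.81), whereas Cd36 (1.07) and Ly96 (0.65) were higher, and the largest changes of the S100 list were S100b (1.96) and S100a11 (-1.01).

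Regulatory T cells, marked by Foxp3, were compared with other alpha-beta T cells. S100a6 was higher in Foxp3+ cells in 4 of 4 libraries, at 5545, 7247, 5356 and 5533 CPM against 3751, 4987, 3822 and 3745, with no overlap between the sides (log2 0.45 ± 0.07, adjusted p = 5.3e-05). S100a8, S100a9, S100a4, Hmgb1 and Tlr2 gave adjusted p from 0.13 to 0.82, and Tlr4 and Ager had too few UMIs to be tested. Of all genes 7.73% were higher and 7.77% lower. S100a10 (0.58) and S100a11 (0.26) were higher with S100a6, and Hmgb2 (-0.62) and Hmgn1 (-0.44) were lower.

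Cycling cells, those with at least 2 of 4 proliferation markers, were compared with other cells of the same class in alpha-beta T cells, cDC2, dermal gamma-delta T cells and macrophages. Class and library together were the block in edgeR's quasi-likelihood test. The 4 classes of a library thus entered as separate pairs, although they are not independent, and the adjusted p-values below do not allow for this. Hmgb1 was higher in cycling cells by log2 0.92 ± 0.10 (adjusted p = 3.2e-08), in 4 of 4 libraries in each of these classes but dermal gamma-delta T cells (3 of 4), and in macrophages it stood at 727 to 1030 against 445 to 623 CPM. The exception was the 21-week DB library (872 against 971 CPM). That library held only 10 cycling dermal gamma-delta T cells, 11 macrophages and 13 cDC2. S100a6 was lower (-0.30 ± 0.05, adjusted p = 8.6e-05), in 3 of 4 libraries in alpha-beta T cells, cDC2 and macrophages and in 2 of 4 in dermal gamma-delta T cells, while S100a8, S100a9, S100a4, Tlr4 and Tlr2 gave adjusted p from 0.059 to 0.78. Without the 21-week WT library S100a8 was lower in cycling cells (-0.79, adjusted p = 0.020), and without the 21-week DB library so was Tlr4 (-0.65, adjusted p = 0.014). Of all genes 9.09% were higher and 21.7% lower, with a median of -0.16. The HMG relatives Hmgn2 (2.58), Hmgb2 (2.31), Hmgb3 (1.95) and Hmgn1 (0.58) were higher, 4 of 5 on that list, and the list of co-receptors and adaptors had 4 of 11 lower, Cd36 the largest (-0.81).

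**Figure D4:**
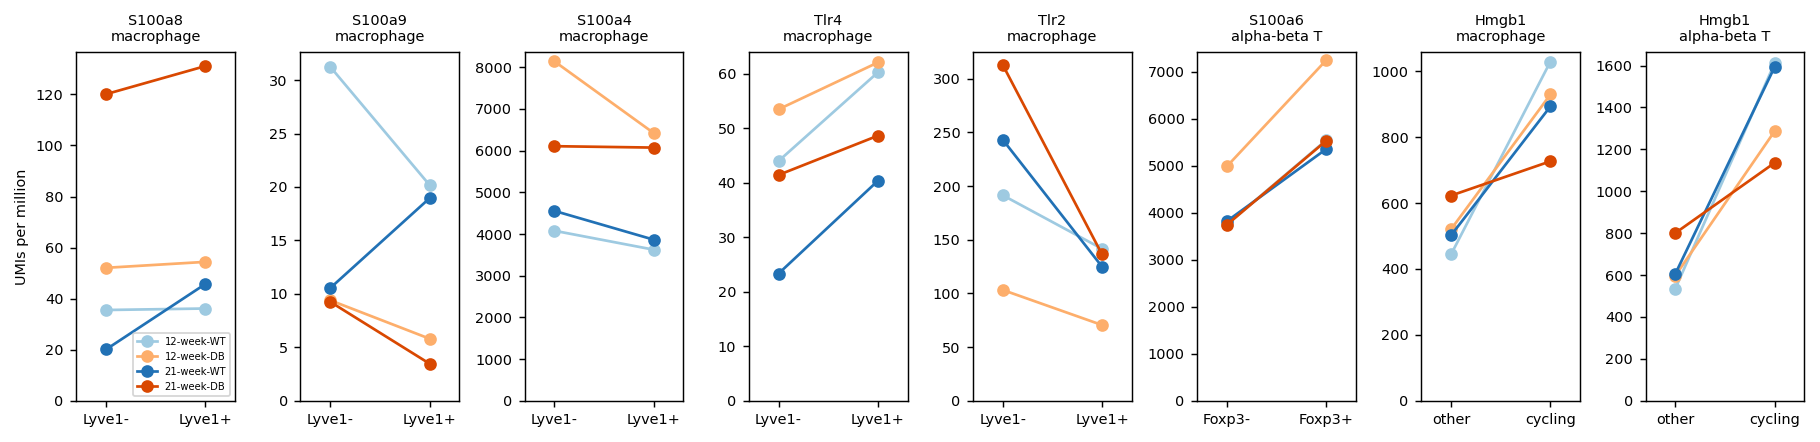
Level in CPM (vertical, from 0) on both sides of each split, with 1 point per library and lines that join the sides of the same library: S100a8, S100a9, S100a4, Tlr4 and Tlr2 in Lyve1- and Lyve1+ macrophages, S100a6 in Foxp3- and Foxp3+ alpha-beta T cells, and Hmgb1 in other and cycling macrophages and alpha-beta T cells. Tlr2 is lower on the Lyve1+ side, S100a6 higher on the Foxp3+ side and Hmgb1 higher on the cycling side in 4 of 4 libraries, while the S100a9 line of the 21-week WT library runs against the other 3. On the Lyve1+ side of that library 134 of 232 S100a9 UMIs came from 1 barcode.

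The genes whose levels followed each member most closely over the 52 class and library sums were ranked by Pearson correlation of log2(CPM + 1), as a description, since the points share libraries and depth. S100a8 was followed by Adipor1 (0.94), S100a9 (0.93) and Lcn2 (0.92), and S100a9 by S100a8 (0.93), Mirt2 (0.93) and Il1f9 (0.92). S100a4 was nearest to Cox6a1 (0.79), Ptgfrn (0.78) and Prelid1 (0.78), and S100a6 to Fxyd5 (0.82), Ndufb9 (0.80) and S100a4 (0.77). Hmgb1 was nearest to Cbx3 (0.87), Fkbp3 (0.85) and Tpr (0.84). Tlr4 was nearest to Aldh3b1 (0.86), Itgam (0.85) and Cd300c2 (0.83), and Tlr2 to Cd300c2 (0.90), Cd14 (0.90) and Sh2b2 (0.89).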

How the data were processed

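Hindpaw CD45+ cells were sorted and made into 1 library per group. The values used were counts of UMIs per gene and barcode, deposited by the authors as unnormalised matrices; their headers give Cell Ranger 5.0.0 at 12 weeks and 6.0.0 at 21 weeks, and the labels name 5.0.0, so software and age cannot be told apart. The members and gene lists were chosen with earlier results of these data known. Barcodes entered if 200 genes or more were detected and mitochondrial genes made up no more than 10% of UMIs. Each was scored by the mean of a class's markers, every marker scaled to its 90th percentile among barcodes holding it and capped, and classed where the best score reached 0.2 and led by 0.05. Doublets were not removed, except as an alternative (0.8% per 1000 barcodes). Barcodes outside neutrophils with 3 of 8 granule genes were set aside, a rule chosen after the data were seen.

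Counts were summed by class and library. Ratios between libraries carry exact conditional binomial intervals and were called past 1.5-fold with at least 50 UMIs over both libraries, since 1 library per group allows no test. Shares carry Clopper-Pearson intervals. Intervals cover counting error only. Within libraries, classes and splits were compared with edgeR 4.0.16 (quasi-likelihood, TMM, library as block, Benjamini-Hochberg over all genes tested, threshold 0.05) in R 4.3.3, with DESeq2 1.42.0 as an alternative. The cycling split had class and library together as the block. These p-values measure only the spread between these libraries of pooled mice and, for cycling, between classes within them. The scripts were tested on simulated data. Python 3.11.15, scanpy 1.11.5, scipy 1.17.1 and numpy 2.4.6 were used. Promoters and motifs came from RefSeq. All members are named, with list genes past 1.5-fold in the same direction at both ages in macrophages and called list genes of each split, at most 4 per list by size; others are said to have been picked after their values were seen. Alternatives were the filters, doublets, classes by cluster, scaling, thinning, ambient subtraction, a 2-fold call, each library left out and no block. Keeping the granule gene barcodes and leaving out barcodes shared between libraries were added after the data were seen.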

Additional observations from a re-analysis of the deposited data

Results flagged for a closer look

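In 8 cases the DB to WT ratio of a member lay on opposite sides at the 2 ages, with counting intervals that leave out no difference; with 1 library per group the difference between ages was not tested. In neutrophils the log2 ratio at 12 and 21 weeks was -0.66 and 0.40 for S100a8, -0.63 and 0.72 for S100a9, and -0.21 and 0.74 for S100a6. The 21-week DB library held 35 neutrophils. S100a8 in ILC2 was at 0.63 and -3.42, values that rest largely on single barcodes with 58 and 72 UMIs. S100a4 in mast cells was at 1.51 and -0.29. In mature dendritic cells S100a4 was at -0.73 and 0.39 and S100a6 at -0.25 and 0.62. Tlr2 in macrophages was at -0.89 and 0.14.

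The barcodes set aside for their granule genes were left out of the comparisons as first given and kept only in an alternative, and they held S100a8 and S100a9 UMIs. They carried 13350, 2044, 9264 and 1524 UMIs of S100a8 and 16121, 2520, 10689 and 2412 of S100a9 in WT then DB at 12 weeks and WT then DB at 21 weeks, from 19, 8, 9 and 14 barcodes.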

How the results depend on the processing

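Leaving out a library was not possible for ratios between groups, which have 1 library each, and the labels give no replicate numbers that pair samples. Library is the block within libraries, or class with library in the cycling comparison. With no replicate block, the Lyve1 comparison called 483 genes higher and 284 lower, the Foxp3 comparison 222 and 194 and the cycling comparison 482 and 130. Counts of macrophage genes past 2-fold were 160 higher and 361 lower for DB to WT at 12 weeks, 574 and 374 at 21 weeks, 114 and 351 for age in WT and 529 and 406 in DB. With TMM over the sums, age in WT gave 686 and 744. Leaving out libraries gave 1121 to 1505 higher and 1092 to 1395 lower genes for Lyve1, and 1164 to 2479 lower genes for cycling, where DESeq2 gave 1212. Thinning to 2000 UMIs gave 867 and 875 for Lyve1, and DESeq2 472 and 436 for Foxp3. S100a8 in macrophages at 12 weeks had a log2 ratio of 0.61 at 5% mitochondrial UMIs, 0.62 without doublets, 0.66 by cluster, 5.17 with ambient RNA subtracted (1.24 CPM left in WT) and -0.90 with granule gene barcodes kept. The value of 5.17 rests on a subtraction that left no S100a9 in macrophages. S100a4 there was at 0.93 at 12 weeks, under a 2-fold call, and at 0.59 without doublets and 0.60 without mitochondrial and ribosomal protein genes at 21 weeks, and S100a6 was at 0.9995 and 0.87, under 2-fold.

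Keeping the granule gene barcodes turned S100a8 for age in WT macrophages (-1.51), S100a9 in macrophages at 21 weeks (1.25) and for age in DB (1.66), S100a8 in monocytes at 21 weeks (-0.34), S100a9 in monocytes at 12 (-1.82) and 21 weeks (-2.14), and S100a9 in the Lyve1 (0.87) and cycling (-0.38) comparisons. S100a9 in monocytes at 12 weeks also turned without doublets (-2.73) and without shared barcodes (-2.25), and by cluster S100a8 in monocytes (0.65) and Tlr2 in cDC2 (-1.91) turned at 12 weeks. With each library left out in turn, values that did not pass the test and changed sign ran from -0.00995 to 0.32 for S100a8 and from -0.0014 to 0.055 for Hmgb1 in the Lyve1 comparison, from -0.026 to 0.39 for S100a8 in the Foxp3 comparison, and from -0.20 to 0.35 for S100a9, from -0.0102 to 0.12 for S100a4 and from -0.21 to 0.12 for Tlr2 in the cycling comparison. Cycling S100a9 was also at -0.17 with DESeq2 and -0.23 without doublets, and cycling Tlr2 at 0.12 with no block. The cause of these changes was not tested. Shares of macrophages with S100a8 were 3.65, 5.38, 3.31 and 10.0% thinned to 1000 UMIs and 6.83, 14.4, 7.998 and 29.0% at 2 or more UMIs, and with S100a9 2.90, 0.997, 0.963 and 0.399% and 2.24, 0.396, 0.711 and 0.329%. Depth limits Ager and lymphoid Tlr4, at few UMIs per class.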
